A study of Homo sapiens with 8 samples.

Results

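Splicing of skipped exons was compared between HMLE TWIST cells given 10 µM emetine and the same cells given the solvent DMSO, both for 24 hours. HMLE TWIST cells are immortalised breast epithelial cells carrying a retrovirally integrated pBabe-TWIST construct, so that all 4 libraries, controls included, came from cells that overexpress the transcription factor TWIST. Each group had 2 libraries of polyadenylated RNA, described by the submitters as biological replicates. The series also holds MCF10A, a breast epithelial line without the construct, under the same 2 treatments, and it is used here only as a comparison. The study, by its title, looked for regulators of alternative splicing that act through RNA G-quadruplexes, structures formed by runs of guanine.

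A skipped-exon event is an exon with its 2 neighbours, for which sequencing reads across exon junctions support either inclusion or skipping of the middle exon. The inclusion level of an event is the share of transcripts with the exon, computed from the inclusion and skipping reads after dividing each by the number of positions where such reads can fall. Of 98244 events in the HMLE TWIST table, 79044 in 9902 genes had at least 20 reads in each of the 4 libraries and were taken as members. Just below that threshold, 407 events had 19 reads in their least covered library, with median levels of 0.95 under both treatments. Just inside it, 381 events had 20 reads, with medians of 0.95 and 0.932. A further 10 reads of the rarer form over the 4 libraries were needed for a test, which left 30290 events of 25380 exons in 8062 genes by identifier. These have 8058 gene symbols, and genes are counted by symbol from here on. An event was called changed where the adjusted p of a quasi-binomial model was under 0.05 and the mean level moved by at least 0.1.

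Emetine is a plant alkaloid that blocks translation elongation at the ribosome. Exon choice is set by the splice sites and by proteins that bind the exon and its introns, among them the serine/arginine-rich (SR) proteins, which mostly favour inclusion, and the heterogeneous nuclear ribonucleoproteins (hnRNPs), many of which favour skipping. Transcripts with a premature stop codon are degraded by nonsense-mediated decay, which acts on messages that are being translated, and many splicing factors limit their own level by including or skipping an exon that brings such a stop. Junction reads count the transcripts that are present, so a change in exon choice and a change in the stability of either form cannot be told apart here.

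The 4 libraries were of like depth, with 90031966 to 91259363 junction reads summed over events, where 1 read may be counted for more than 1 event. A tested event had a median of 361 and 341 reads in the DMSO libraries and 508 and 474 under emetine. The mesenchymal markers among the junction reads set the line apart from MCF10A. Of 15 mesenchymal marker genes, 14 were listed in HMLE TWIST, led by FN1 (fibronectin), VIM (vimentin) and COL1A1 (a collagen chain), with 2668245 to 4732379 reads per library, against 22894 to 35694 in MCF10A. These reads were fewer under emetine (2973579 and 2668245) than with DMSO (4732379 and 4672675), a sum that FN1, VIM and COL1A1 dominate, and their part in the splicing results was not tested. By gene, 9 of the 14 had fewer reads in both emetine libraries than in either DMSO library, ZEB2, TNC and TWIST1 had more, and CDH2 and ZEB1 overlapped. Of 15 epithelial markers 5 were listed, with 149 to 244 reads per library, against 96069 to 178875 in MCF10A, and CDH1 (E-cadherin) had 0 to 7 reads. TWIST1 itself was listed in 1 event with at least 126 reads in each library, which does not measure the level of the construct. Reads listed over splicing events are not a measure of expression, and in these cells, labelled as breast epithelial, the reads over epithelial marker events were few.

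The sequences of 9 wholly coding exons that changed are printed here because the results below turn on their length, their introns and their runs of guanine. Capitals mark runs of 3 or more G on the transcribed strand. The letters are those of GENCODE 29 transcripts, matched by gene, exon length and the length of both introns, and the coordinates are those of the deposited table, on GRCh37 per the submitters' processing notes. Exon numbers are those of the matched transcript. The first 6 exons fell under emetine and the last 3 rose.
MAP4K2 exon 9, chr11:64568372-64568503, minus strand: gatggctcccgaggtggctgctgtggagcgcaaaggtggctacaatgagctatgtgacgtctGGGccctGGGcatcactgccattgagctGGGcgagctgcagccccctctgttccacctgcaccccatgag
HDAC7 exon 9, chr12:48189689-48189799, minus strand: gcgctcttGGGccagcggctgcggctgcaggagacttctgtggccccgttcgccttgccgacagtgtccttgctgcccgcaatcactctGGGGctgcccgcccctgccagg
TARS2 exon 11, chr1:150477108-150477209, plus strand: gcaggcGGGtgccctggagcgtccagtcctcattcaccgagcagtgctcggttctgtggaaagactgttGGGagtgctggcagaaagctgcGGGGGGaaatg
SNRPA1 exon 6, chr15:101826419-101826498, minus strand: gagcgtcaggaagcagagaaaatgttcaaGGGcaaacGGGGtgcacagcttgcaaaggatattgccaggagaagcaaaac
TNFRSF1A exon 6, chr12:6440019-6440092, minus strand: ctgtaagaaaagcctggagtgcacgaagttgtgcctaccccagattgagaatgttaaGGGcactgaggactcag
SPAG9 exon 24, chr17:49053224-49053262, minus strand: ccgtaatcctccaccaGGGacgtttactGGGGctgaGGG
MAP4K4 exon 22, chr2:102487956-102488147, plus strand: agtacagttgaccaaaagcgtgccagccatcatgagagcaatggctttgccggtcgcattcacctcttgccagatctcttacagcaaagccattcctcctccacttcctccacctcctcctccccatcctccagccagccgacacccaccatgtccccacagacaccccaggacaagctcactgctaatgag
NCOR1 exon 2, chr17:15990486-15990659, minus strand: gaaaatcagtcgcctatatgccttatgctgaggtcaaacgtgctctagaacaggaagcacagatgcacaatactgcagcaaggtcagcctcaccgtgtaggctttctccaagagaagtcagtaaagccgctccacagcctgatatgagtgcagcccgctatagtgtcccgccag
MBNL1 exon 6, chr3:152164493-152164546, plus strand: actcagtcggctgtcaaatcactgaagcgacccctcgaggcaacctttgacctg

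Under emetine about 1 in every 3 tested genes had an exon whose inclusion changed, with more falling than rising events. Of the 30290 tested events, 4317 (14.3%) changed, 1895 (6.26%) higher and 2422 (8.0%) lower under emetine. They lay in 2664 genes, 33.1% of those tested. The largest rise was in IVNS1ABP, which encodes a kelch-repeat protein that binds actin filaments, and its 141-nucleotide exon (chr1:185275617-185275757, minus strand) had levels of 0.0256 and 0.041 in the DMSO libraries and 0.934 and 0.959 under emetine. The exon went from nearly always skipped to nearly always included, and the groups did not overlap (change 0.913, adjusted p = 6.74e-35). The largest named fall was in TESK1, a kinase that acts on the actin regulator cofilin, whose 83-nucleotide exon 5 (chr9:35607324-35607406, plus strand) had levels of 0.971 and 0.975 in the DMSO libraries and 0.248 and 0.309 under emetine. It went from almost full inclusion to a minority of transcripts (change -0.694, adjusted p = 4.6e-20), again without overlap. Groups without overlap were a condition for naming most exons here and below, so their separation is not a result.

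Most changes were partial. Among rising events the median change was 0.192 and among falling events -0.188, and changes of 0.1 to 0.2 made up 52.6% of the rises and 53.9% of the falls. A change of at least 0.5 was reached by 60 rising and 84 falling events. In 26 events the level went from under 0.1 to over 0.5, and in 67 from over 0.9 to under 0.5. DMSO and emetine replicates were fully separate for 4306 of the 4317 changes, against 69.9% of all tested events. The median SD between the 2 replicates was 0.0250 and 0.0246 (DMSO and emetine) for rising events and 0.0127 and 0.0247 for falling ones. limma on the log2 odds of inclusion called 3012 events (9.94%), 1177 higher and 1835 lower, of which 2893 were among the 4317. With the model's dispersion prior taken from all events, 4246 events were called, but 0 when either emetine library was left out. Without the correction for the lengths of the 2 forms, 46.4% in place of 56.1% of the changed events were lower, so which direction was more frequent depends on that correction.

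**Figure D1:**
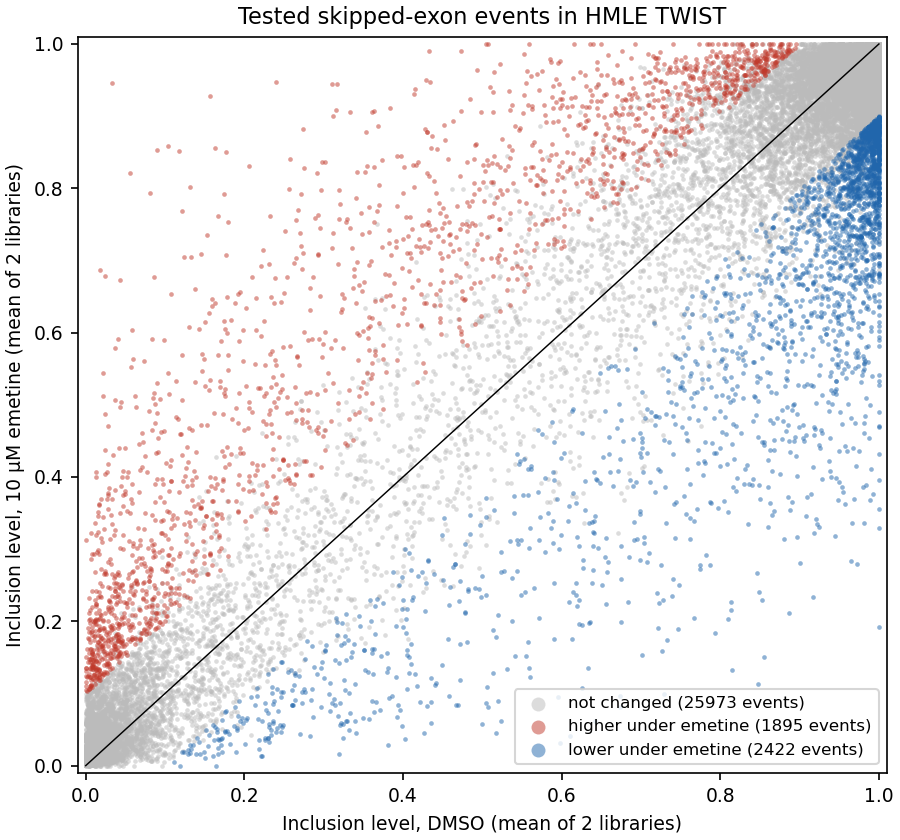
Mean inclusion level under emetine (y axis) against DMSO (x axis) for each of the 30290 tested events, with the 1895 changed events that rose in red, the 2422 that fell in blue and the rest in grey. Falling events crowd the right edge, near full inclusion with DMSO, while rising events spread over the whole range.

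Exons that fell had mostly been constitutive. Their median level was 0.954 with DMSO and 0.721 under emetine, and 83.4% of them ended nearer to 0.5 than they began. Of the 18877 tested events with a DMSO level over 0.9, 1582 (8.38%) fell, and such an event can hardly rise by 0.1. Rising events had a median level of 0.328 with DMSO and 0.654 under emetine, and 50.3% of them moved nearer to 0.5. Of the 1963 events with DMSO levels from 0.3 to 0.7, where either direction is possible, 560 (28.5%) rose and 305 (15.5%) fell. Over all tested events the share with an intermediate level, between 0.1 and 0.9, was 21.1% and 21.7% in the DMSO libraries and 27.8% and 27.7% under emetine. Both emetine libraries thus held more exons in partial use than either DMSO library. Coverage moved with the calls: of the 7609 least covered events 11.2% fell, and of the 7571 most covered 3.42% fell.

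Most genes with 2 or more changed events changed in 1 direction only. Changed events were higher only in 1049 genes, lower only in 1346 and of both kinds in 269. There were 952 genes with 2 or more changed events, and the 269 with both directions are all among these. The other 1712 genes had 1 changed event, which can have only 1 direction, and events of a gene can share reads. The gene with the most changed exons was ABI3BP, which encodes an extracellular matrix protein with many short, similar exons. In it 14 of 39 tested exons changed, in 21 events that all rose by 0.105 to 0.491, of which limma called 8. The largest of these was a 72-nucleotide exon (chr3:100581682-100581753, minus strand) with levels of 0.298 and 0.232 in the DMSO libraries and 0.714 and 0.798 under emetine. In PKD1, the gene for the membrane protein polycystin-1, 7 of 9 tested exons changed and all 7 fell, by up to 0.338 for the 185-nucleotide exon 33 (chr16:2147320-2147504, minus strand) with levels of 0.993 and 0.966 in the DMSO libraries and 0.658 and 0.626 under emetine. PKD1 has near-identical pseudogene copies elsewhere on the chromosome, so its counts are uncertain. TARBP1, which encodes an RNA-binding methyltransferase, had 7 falling events and 1 that rose, and PVT1, a long noncoding RNA, had 7 rising events and 1 that fell, of which limma called 2. In RANBP3, a cofactor of nuclear export, 4 events rose and 4 fell. Its 159-nucleotide exon had levels of 0.25 and 0.22 with DMSO and 0.56 and 0.59 with emetine, with as few as 25 reads, and the call was lost without the second DMSO library (adjusted p = 0.0721).

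Exons beside short introns mostly fell where they changed. Of the 765 tested events whose introns were both 200 nucleotides or shorter, 160 (20.9%) fell and 3 (0.392%) rose. Where the shorter intron was up to 200 nucleotides and the other of any length, 785 of 5105 events fell (15.4%) and 98 rose (1.92%), so that 88.9% of the changed ones were lower (95% Wilson interval 86.7 to 90.8, which covers counting error only). The share falling was lower beside longer introns, from 10.0% above 200 and up to 500 nucleotides to 5.24% above 1000 and up to 3000, and it was 4.91% above 10000. The share rising was between 5.14% and 8.01% in all classes above 200 nucleotides. It made little difference on which side a lone short intron lay, with 14.8% falling where it was upstream and 14.1% where it was downstream.

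The order was the same among exons of like starting level. Among events with a DMSO level over 0.9, 15.1% fell where the shorter intron was up to 200 nucleotides, against 5.2% above 1000 and up to 3000 and 5.11% above 10000. The short-intron events had more reads, with a median of 404 in the least covered library against 176 for introns above 10000 nucleotides. Without the length correction 81.4% of the changed short-intron events were lower. Events of a gene share reads and are not independent, so these shares are given without a test.

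**Figure D2:**
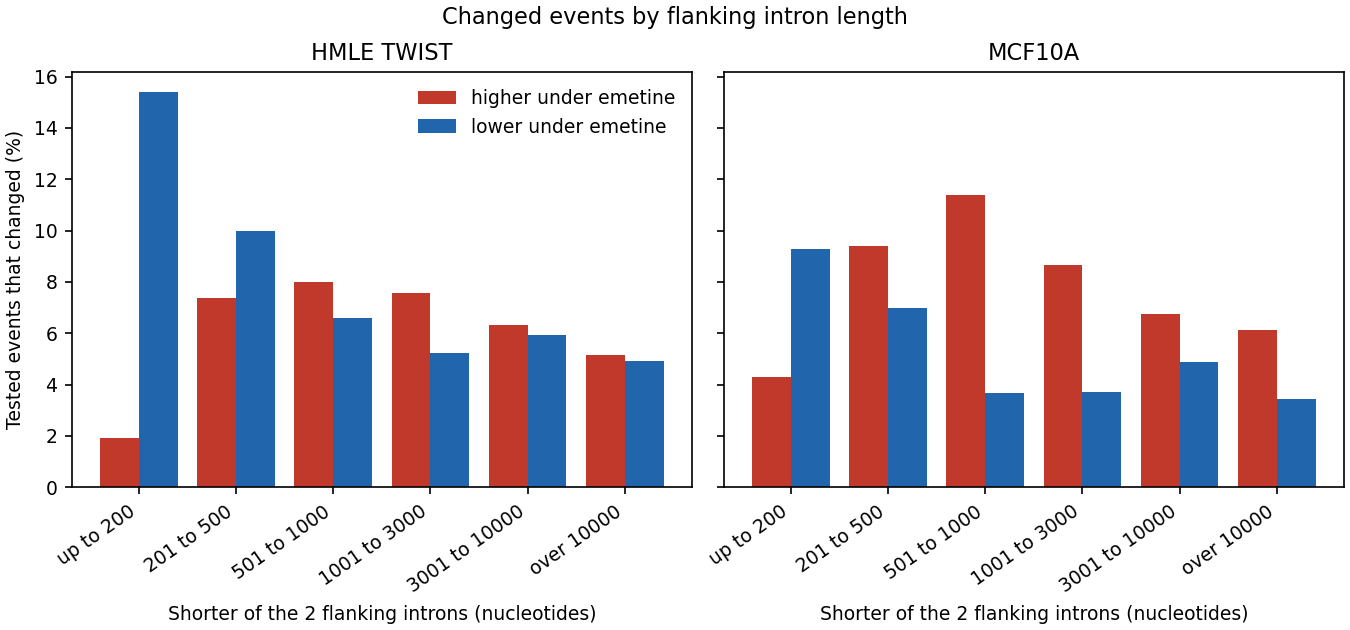
Share of tested events that rose (red) or fell (blue) under emetine, in percent, by the length of the shorter flanking intron, for HMLE TWIST (left) and MCF10A (right). In HMLE TWIST the share falling goes from 15.4% at up to 200 nucleotides to 4.91% above 10000, and in MCF10A from 9.28% to 3.45%.

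Among the named exons 5 lay between 2 introns of 200 nucleotides or less, and each of them fell. MAP4K2, a kinase upstream of the stress-activated JNK kinases, has introns of 79 and 73 nucleotides around its 132-nucleotide exon, which had levels of 0.938 and 0.916 in the DMSO libraries and 0.513 and 0.417 under emetine. HDAC7, a class II histone deacetylase, has introns of 190 and 138 nucleotides around an exon with levels of 0.596 and 0.624 in the DMSO libraries and 0.0526 and 0.0306 under emetine. This exon was nearly lost (change -0.569, adjusted p = 1.26e-25), and in both genes the groups were far apart. The 102-nucleotide exon of TARS2, the mitochondrial threonyl-tRNA synthetase, fell from mostly included, with levels of 0.964 and 0.919 in the DMSO libraries and 0.705 and 0.654 under emetine. CDCA3, a regulator of mitotic entry, had levels of 0.951 and 0.95 with DMSO and 0.457 and 0.414 with emetine for a 91-nucleotide exon (chr12:6958487-6958577, minus strand). SAT2, a member of the spermidine acetyltransferase family, had levels of 0.985 and 0.994 with DMSO and 0.67 and 0.691 with emetine for a 52-nucleotide exon (chr17:7530681-7530732, minus strand). Of these 5, 4 had DMSO levels above 0.9, all but HDAC7. Of the named exons with 1 short intron, those that rose most were in SLC20A1, MDC1 and CASP2 (changes 0.459, 0.448 and 0.419).

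Over all intron lengths, guanine runs were found in a larger share of exons that fell than of exons that rose, a difference not seen beside long introns. A run of 3 G (GGG, on the transcribed strand, overlapping longer runs) was found in 68.4% of the 22997 tested exons whose sequence could be matched. It was found in 71.8% of the 2088 that fell, 65.0% of the 1585 that rose and 68.2% of the unchanged ones. Beside a short intron the share was 82.2% in falling, 66.7% in rising and 75% in unchanged exons. With a shorter intron above 1000 nucleotides it was 61.4% in falling, 62.1% in rising and 63.8% in unchanged exons. The mean number of runs per 100 nucleotides was 1.40 in falling, 1.03 in rising and 1.15 in unchanged exons. The same letters on the opposite strand (CCC) were in 68.4% of falling and 69.6% of rising exons. Base composition moved with these shares, with a median GC content of 53.4% in falling and 48.9% in rising exons, and its part was not tested. Of the exons printed above, MAP4K2, TARS2 and SPAG9 hold 3 runs each, HDAC7 and SNRPA1 2 each and TNFRSF1A 1, while MAP4K4, NCOR1 and MBNL1 hold 0. These exons were picked for display after their values were seen. Other named exons went otherwise: CHEK2 fell with 0 runs, and the 171-nucleotide exon of MAP2 rose with 3.

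The annotated fate of the 2 forms separated rises from falls. GENCODE 29 lists transcripts as coding, as targets of nonsense-mediated decay or as noncoding, and 48.1% of the tested events had a listed transcript for both forms. Where the form with the exon is a decay target and the form without it is coding, 339 of 2150 events rose (15.8%) and 60 fell (2.79%). Where the form with the exon is coding and the form without it is a decay target, 24 of 1342 rose (1.79%) and 291 fell (21.7%). In both classes the form that gained was mostly the annotated decay target. Where both forms are coding the directions were near balance, with 740 of 7930 higher (9.33%) and 673 lower (8.49%). Noncoding forms went the same way as decay targets, with 12.4% rising where the form with the exon was noncoding and 16.6% falling where the form without it was. Starting levels differ between these classes, with a median DMSO level of 0.0247 where the exon brings decay and 0.978 where skipping does, so that each class had room in mainly 1 direction.

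**Figure D3:**
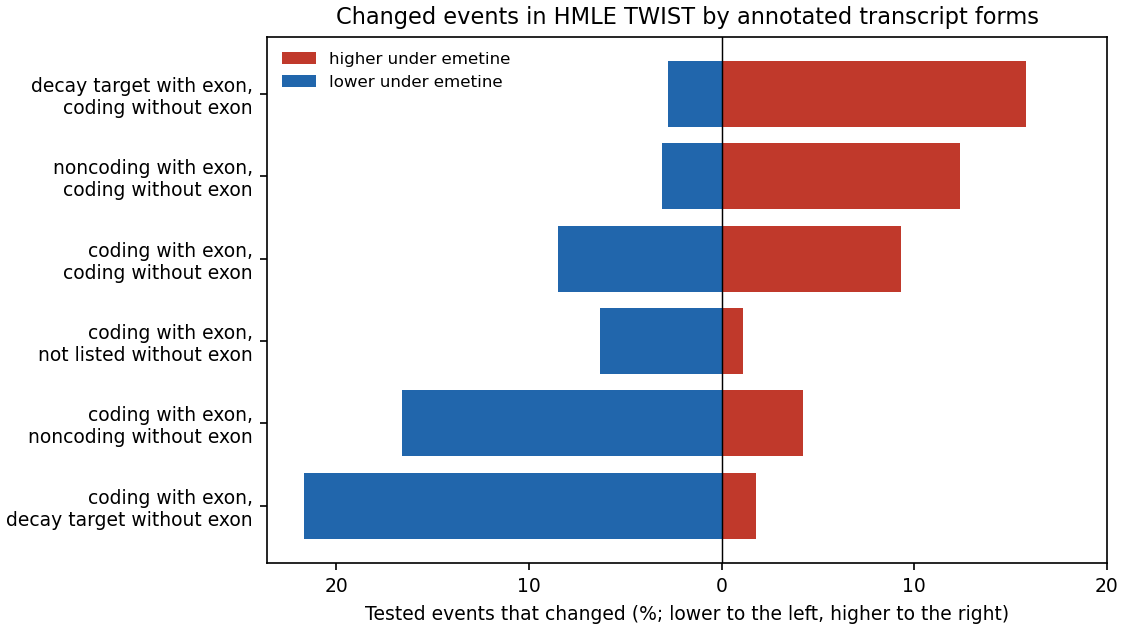
Share of tested events that fell (blue, to the left) or rose (red, to the right) in HMLE TWIST, in percent, by the annotated kind of the transcripts with and without the exon. Falls lead where skipping gives a decay target (21.7%) and rises lead where inclusion does (15.8%).

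Rising exons annotated to bring decay included those of splicing factors. SRSF3 encodes an SR protein that limits its own level through such an exon, of 456-nucleotide length (chr6:36567598-36568053, plus strand), and its levels were 0.0329 and 0.0413 in the DMSO libraries and 0.538 and 0.475 under emetine. SRSF7, its close relative, had levels of 0.0233 and 0.0323 in the DMSO libraries and 0.419 and 0.331 under emetine for a 449-nucleotide exon (chr2:38976040-38976488, minus strand). Both exons went from rare to about as frequent as skipping or nearly so (adjusted p = 2.22e-51 and 1.58e-38). SRRT, a partner of the nuclear cap-binding complex, had levels of 0.0662 and 0.051 in the DMSO libraries and 0.676 and 0.531 under emetine for a 326-nucleotide exon (chr7:100480386-100480711, plus strand). SLC20A1, a phosphate transporter, had levels of 0.0449 and 0.0441 with DMSO and 0.542 and 0.466 with emetine for a 59-nucleotide exon, and AGPAT4, an enzyme of phospholipid synthesis, had 0.087 and 0.0761 with DMSO and 0.794 and 0.792 with emetine for a 137-nucleotide exon. AASS, the first enzyme of lysine breakdown, and TRMT11, a tRNA methyltransferase, rose by 0.496 and 0.442 from DMSO levels under 0.1. All of these are listed with a decay-target form with the exon and a coding form without it.

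Exons whose loss is annotated to bring decay fell in genes of many kinds. SNRPA1 encodes a protein of the U2 small nuclear ribonucleoprotein, which recognises the branch point, and the levels of its 80-nucleotide exon 6 were 0.967 and 0.966 in the DMSO libraries and 0.319 and 0.353 under emetine. U2SURP, which associates with the same particle, had levels of 1 and 0.966 with DMSO and 0.5 and 0.468 with emetine for a 44-nucleotide exon (chr3:142742817-142742860, plus strand). CHEK2, a kinase of the DNA damage checkpoint, had levels of 0.907 and 0.853 with DMSO and 0.287 and 0.34 with emetine for its 62-nucleotide exon 8 (chr22:29099493-29099554, minus strand). These 3 exons went from mostly included to equal use or less (adjusted p = 8.09e-40, 3.76e-18 and 5.41e-16). The same class held SLC15A4, a lysosomal transporter, with a change of -0.548, and SEC61A2, a translocon subunit, with -0.504. EIF4A2, an RNA helicase of translation initiation, changed at 2 exons. Its 140-nucleotide exon 4 had levels of 0.828 and 0.828 with DMSO and 0.555 and 0.57 with emetine, and skipping of it is annotated as a decay target. Its 107-nucleotide exon, annotated to bring decay when included, had levels of 0.114 and 0.0657 with DMSO and 0.866 and 0.841 with emetine. Both exons of EIF4A2 thus moved towards the annotated decay form.

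Not every named exon followed its annotation. RIPK2, a kinase of innate immune signalling, has a 154-nucleotide exon whose loss is listed as a decay target, yet its levels were 0.293 and 0.252 in the DMSO libraries and 0.676 and 0.699 under emetine. SETD5, a chromatin regulator, has a 193-nucleotide exon listed as a decay target when included, and it fell, with levels of 0.78 and 0.752 in the DMSO libraries and 0.157 and 0.253 under emetine. TAF1C, a subunit of the RNA polymerase I initiation factor, has a 78-nucleotide exon of the same listed kind that fell by 0.283. The last has an upstream intron of 94 nucleotides. Where the form without the exon was coding, the short-intron events still fell more often than they rose, 257 against 75 of 1768, while for shorter introns above 1000 and up to 3000 nucleotides 165 fell and 470 rose of 3534. Among events whose form with the exon is a decay target, 63 fell and 33 rose of 557 with a short intron, against 26 and 104 of 739 above 1000 and up to 3000. Intron length and annotated form each went with direction within these classes of the other. Starting levels went with them too. The median DMSO level was 0.777 for short and 0.534 for longer introns where the form without the exon was coding. Where the form with the exon was a decay target it was 0.759 and 0.0908. Room to fall thus differed between these classes, and its part was not tested.

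Reading frame and position within the transcript went the same way. Of wholly coding exons whose length is not a multiple of 3, 12% of 8862 fell and 1.86% rose. Of those whose length is a multiple of 3, 6.3% of 6666 fell and 5.4% rose. Their median DMSO level was 0.964, against 0.991 where the length is not a multiple of 3, and the part of starting level was not tested. Exons of 5′ untranslated regions had a median DMSO level of 0.24, against 0.983 for wholly coding exons, and so had more room to rise. They rose more often than they fell, 11.6% against 6.77% of 2230. Among these were CDK16, a cyclin-dependent kinase, with levels of 0.334 and 0.25 with DMSO and 0.816 and 0.826 with emetine for a 70-nucleotide exon, and ZC3H11A, an mRNA export factor, with 0.556 and 0.471 with DMSO and 0.898 and 0.914 with emetine. INTS12, a subunit of the Integrator complex, has an exon there that fell, with levels of 0.778 and 0.808 with DMSO and 0.17 and 0.198 with emetine. Exons of 27 nucleotides or fewer, often called microexons, fell in 13.9% and rose in 6.19% of 404 events, and exons of 400 or more fell in 7.82% and rose in 11.8% of 703. The 18-nucleotide exon 79 of DST, a protein that links cytoskeletal filaments, is a named microexon and had levels of 0.921 and 0.926 with DMSO and 0.269 and 0.393 with emetine.

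Genes were grouped in 29 lists by function, and the share of each list's tested genes with a changed event was set beside the 33.1% of all tested genes. This share ran from 4.48% in cytosolic ribosomal proteins to 67.7% in genes with exons known to switch in the epithelial-mesenchymal transition. It was above that of all genes in 16 lists and below it in 13. Coverage and the number of tested events bear on the share, since a gene with more tested events has more chances of a call: the median was 4 tested events for genes with a changed event and 2 for the others, and of the 2288 genes with 1 tested event 17.0% changed. The fewest reads per event had a median of 273 over all tested events. Genes on no list stood at 33.6%. The lists overlap in 71 tested genes and no test was made between them. The 110 named events leave out the marker events of CD44 and CTNND1. A fixed rule chose them by size, replicate separation and a limma adjusted p under 0.05, or by their gene's number of changed exons. Their adjusted p in the quasi-binomial model ran from 2.22e-51 (SRSF3) to 0.00471 (RANBP3). limma's adjusted p was at most 0.0499 (GTF2I), a bound that the rule itself set for events of the lists. Of all 4317 changed events limma called 67.0%.

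**Figure D4:**
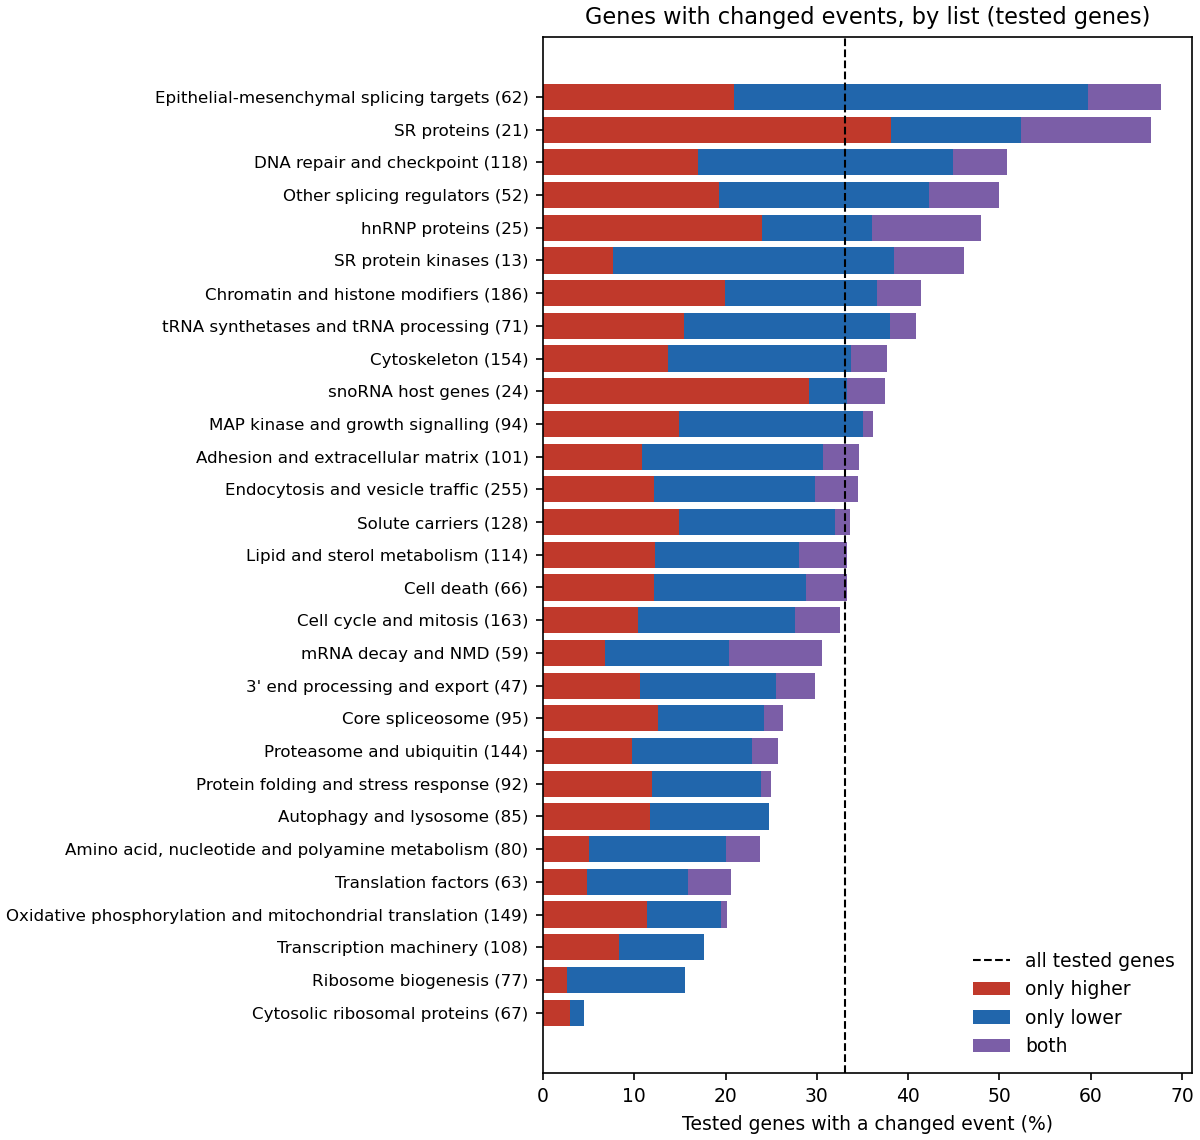
Share of tested genes with at least 1 changed event, in percent, for each of the 29 lists, divided into genes with only higher, only lower or both kinds of events, with the number of tested genes after each name. The dashed line marks all tested genes (33.1%), and the lists run from 67.7% to 4.48%.

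The share of changed genes was above that of all genes among regulators of splicing and below it in the core machinery. The SR protein list also holds related genes, among them ACIN1, BCLAF1 and SRRM1. Of its 21 tested genes 14 changed (66.7%), 8 only higher, 3 only lower (SRSF1, SRSF10 and TRA2A) and 3 both (ACIN1, BCLAF1 and SRRM1). Of 25 hnRNP genes 12 changed (48.0%), and of 52 other regulators 26. Of 95 core spliceosome genes 25 changed (26.3%). The SR, hnRNP and other regulator lists had a median of 4 tested events per gene, against 3 over all genes. By event, 16.2% of 80 rose and 10.0% fell in the SR list, against 6.26% and 8.0% of all tested events. In the hnRNP list 9.23% of 130 events rose and 5.38% fell, so only the rises were above all events. In the other regulators 8.23% of 243 rose and 9.47% fell. The median change over the list's events was near 0 in each, from -0.0025 in the other regulators to 0.0021 in SR proteins, beside -0.0031 over all tested events. The genes given by name for their count only, here and below, were chosen after their values were seen. Of 13 tested kinases that phosphorylate SR proteins, 6 changed, 4 of them only lower (CLK2, CLK3, DYRK1A and HIPK3), with SRPK2 only higher and CLK4 both.

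CLK2 and CLK3 fell strongly at corresponding exons. The 85-nucleotide exon 4 of CLK2 (chr1:155238499-155238583, minus strand) had levels of 0.949 and 0.989 in the DMSO libraries and 0.419 and 0.319 under emetine, and the 97-nucleotide exon 4 of CLK3 (chr15:74914461-74914557, plus strand) had levels of 0.98 and 0.986 in the DMSO libraries and 0.45 and 0.569 under emetine. Both went from nearly always included to about equal use or less. ACIN1, a protein of the exon junction machinery, and BCLAF1, an RNA-binding protein, lost coding exons, with levels of 0.463 and 0.564 with DMSO and 0.211 and 0.163 with emetine in ACIN1 and 0.777 and 0.75 with DMSO and 0.521 and 0.498 with emetine in BCLAF1. HNRNPH1, which binds runs of guanine, changed in 2 events that are not independent. The junction that counts as skipping of the first exon also counts as inclusion of the second. Its 92-nucleotide coding exon had levels of 0.893 and 0.935 with DMSO and 0.329 and 0.424 with emetine. The 179-nucleotide exon that follows it had 0.531 and 0.338 with DMSO and 0.968 and 0.928 with emetine. In this second event the form with the 179-nucleotide exon lacks the 92-nucleotide exon, and that form is annotated as a decay target. Both events thus reflect loss of the 92-nucleotide exon. HNRNPH3, a relative of HNRNPH1, lost a 139-nucleotide coding exon, with levels of 0.957 and 0.955 with DMSO and 0.614 and 0.638 with emetine. HNRNPA2B1 gained a 136-nucleotide exon annotated to bring decay, with levels of 0.602 and 0.599 with DMSO and 0.931 and 0.917 with emetine. The genes of the hnRNP H family have near-identical stretches, so a read could be placed in another member.

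Other RNA-binding proteins moved either way. RBM3, induced by cold, and MBNL2, a muscleblind protein, gained exons (changes 0.388 and 0.382). ATXN2L, an RNA-binding protein of stress granules, lost its 72-nucleotide exon 12, which has an upstream intron of 96 nucleotides and had levels of 0.981 and 0.986 with DMSO and 0.663 and 0.676 with emetine. TIAL1, a stress granule protein and splicing regulator, had levels of 0.48 and 0.482 with DMSO and 0.18 and 0.164 with emetine. In the spliceosome list SUGP2 gained an exon annotated to bring decay, with levels of 0.491 and 0.363 with DMSO and 0.885 and 0.88 with emetine, and LUC7L, a partner of the U1 particle, gained a 70-nucleotide coding exon, with 0.218 and 0.257 with DMSO and 0.649 and 0.632 with emetine. In each of these the emetine libraries lay on 1 side of the DMSO libraries, as the rule for naming required.

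RNA decay genes had a share close to that of all genes. Of 59 tested genes of mRNA decay 18 changed (30.5%), 4 only higher (DIS3, DIS3L2, MAGOHB and SMG1), 8 only lower and 6 both. UPF3A, a factor of nonsense-mediated decay, lost its 161-nucleotide exon 7 (chr13:115064315-115064475, plus strand), with levels of 0.952 and 0.945 in the DMSO libraries and 0.62 and 0.572 under emetine. EDC3, an activator of decapping, lost a 5′ untranslated exon that had been in all counted transcripts, with levels of 1 and 1 with DMSO and 0.577 and 0.488 with emetine. MAGOHB, a part of the exon junction complex, gained an exon annotated to bring decay (change 0.204), and CNOT10, of the CCR4-NOT deadenylase, gained a coding exon (change 0.186). Of 47 tested genes of 3′ end processing and export 14 changed (29.8%), 7 only lower. In ZC3H14, which binds poly(A) tails, the levels were 0.756 and 0.73 with DMSO and 0.312 and 0.318 with emetine.

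The apparatus of translation, which emetine blocks, had a share of changed genes below that of all genes. Of 67 tested genes of cytosolic ribosomal proteins 3 changed (4.48%): RPS9 and RPL10A rose and RPL17 fell. Of the 29 lists this was the most deeply covered, with a median of 18100 reads in the least covered library, and their median change was -9e-05. In RPS9 the levels of a 172-nucleotide exon (chr19:54710421-54710592, plus strand) were 0.384 and 0.474 in the DMSO libraries and 0.951 and 0.951 under emetine, and in RPL10A those of a 339-nucleotide exon were 0.781 and 0.867 with DMSO and 0.993 and 0.994 with emetine. Without the length correction the RPL10A change was 0.0941, just under the threshold, and both genes have processed copies elsewhere in the genome. Of 63 translation factors 13 changed (20.6%), 7 only lower, and of 77 ribosome biogenesis genes 12 (15.6%), 10 only lower with DDX55 and TAF1D only higher. EEF2K, the kinase that inhibits elongation factor 2, lost its 128-nucleotide exon 9, with levels of 0.977 and 0.987 in the DMSO libraries and 0.655 and 0.769 under emetine. WDR36, a protein of small subunit assembly, lost its 82-nucleotide exon 21, beside an intron of 183 nucleotides, with levels of 0.994 and 1 with DMSO and 0.73 and 0.772 with emetine. EEF1D, a subunit of the elongation factor 1 complex, gained a 5′ untranslated exon, with levels of 0.02 and 0.0248 with DMSO and 0.193 and 0.212 with emetine.

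In genes of tRNA and of small nucleolar RNAs the share of changed genes was above that of all genes, but for tRNA the share of changed events was not. Of 71 tested genes of tRNA synthetases and tRNA processing 29 changed (40.8%), 11 only higher and 16 only lower. Of their 352 tested events 22 rose (6.25%) and 25 fell (7.1%), against 6.26% and 8.0% of all tested events. WARS, the tryptophanyl-tRNA synthetase, gained a 5′ untranslated exon, with levels of 0.285 and 0.211 with DMSO and 0.57 and 0.59 with emetine, and AARS2, the mitochondrial alanyl-tRNA synthetase, lost its 146-nucleotide exon 6, with 0.994 and 0.955 with DMSO and 0.608 and 0.619 with emetine. Of 24 tested genes that carry small nucleolar RNAs in their introns 9 changed (37.5%), 7 only higher, 1 only lower (SNHG21) and 1 both (EIF4A2). Their events were higher in 14 and lower in 2 of 120 tested, 11.7% and 1.67%, against 6.26% and 8.0% of all tested events. SNHG8, one of the noncoding hosts, had levels of 0.325 and 0.34 with DMSO and 0.717 and 0.772 with emetine for a 31-nucleotide exon (chr4:119200262-119200292, plus strand).

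DNA repair genes had one of the highest shares. Of 118 tested genes of DNA repair and checkpoints 60 changed (50.8%), 20 only higher, 33 only lower and 7 both, and 65 of their 587 events fell (11.1%). Coverage was below that of all genes, with a median of 211 reads. UIMC1, which brings the BRCA1 complex to ubiquitin at breaks, lost a 239-nucleotide coding exon (chr5:176396054-176396292, minus strand), with levels of 0.868 and 0.857 in the DMSO libraries and 0.336 and 0.391 under emetine. MDC1, a scaffold of the damage response, gained inclusion of a 792-nucleotide coding exon (chr6:30675343-30676134, minus strand), with levels of 0.406 and 0.389 in the DMSO libraries and 0.827 and 0.864 under emetine. XPA, of nucleotide excision repair, gained an exon annotated to bring decay, with levels of 0.149 and 0.12 with DMSO and 0.463 and 0.466 with emetine. The fall in CHEK2, of this list, is given above. CHEK2 has copies of part of the gene elsewhere in the genome, so its counts are uncertain.

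Of 186 tested genes of chromatin and histone modification 77 changed (41.4%), with 71 events higher and 63 lower of 743. H2AFY, the gene of the histone variant macroH2A1, had levels of 0.159 and 0.0753 in the DMSO libraries and 0.905 and 0.799 under emetine for a 111-nucleotide exon (chr5:134696187-134696297, minus strand). This was among the largest rises named, although it rests on as few as 50 reads. NCOR1, a corepressor, gained the exon printed above, with levels of 0.273 and 0.233 with DMSO and 0.656 and 0.698 with emetine. Cell cycle genes stood at 53 of 163 (32.5%), close to all genes. Among them CENPV, a centromere protein, gained an exon annotated to bring decay, with levels of 0.0973 and 0.0749 with DMSO and 0.531 and 0.502 with emetine, and CENPH, a kinetochore protein, lost its 52-nucleotide exon 7, with levels of 0.977 and 0.986 with DMSO and 0.556 and 0.57 with emetine. Transcription machinery was low, with 19 of 108 genes (17.6%). In it MED15, a Mediator subunit, lost an exon, with levels of 0.943 and 0.978 with DMSO and 0.407 and 0.464 with emetine. GTF2I, a transcription factor gene with near-identical copies on the same chromosome, had levels of 0.202 and 0.184 with DMSO and 0.614 and 0.418 with emetine.

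**Figure D5:**
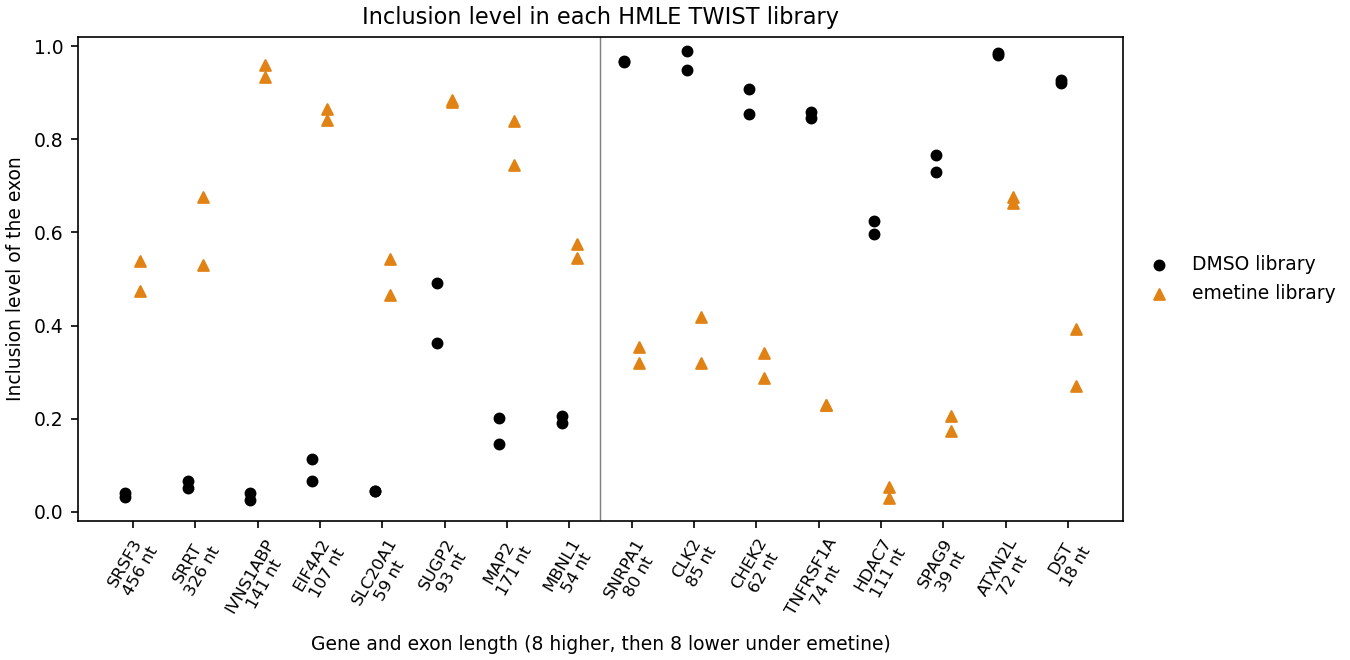
Inclusion level of 16 named exons in each of the 4 HMLE TWIST libraries, with DMSO libraries as black circles and emetine libraries as orange triangles. The 8 exons on the left rose and the 8 on the right fell. In none do the groups overlap, which was a condition for naming them.

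Receptors and kinases of cell death and growth signalling changed in both directions. Of 66 tested cell death genes 22 changed (33.3%), and of 94 genes of MAP kinase and growth signalling 34 (36.2%), both near all genes. The receptor TNFRSF1A, through which tumour necrosis factor signals, lost the 74-nucleotide exon 6 printed above, with levels of 0.846 and 0.859 in the DMSO libraries and 0.23 and 0.229 under emetine (change -0.623, adjusted p = 6.82e-38). Its length is not a multiple of 3, and its downstream intron has 141 nucleotides. CASP8, the initiator caspase downstream of such receptors, lost a 45-nucleotide exon, with levels of 0.949 and 0.852 with DMSO and 0.308 and 0.252 with emetine, and CASP2, another initiator caspase, gained a 61-nucleotide exon, with 0.0885 and 0.138 with DMSO and 0.551 and 0.515 with emetine. HRAS, a growth signalling GTPase, gained an 82-nucleotide exon, with levels of 0.0979 and 0.115 with DMSO and 0.419 and 0.41 with emetine. MAP4K4, a kinase upstream of JNK, changed at 2 coding exons in opposite directions, with 0.35 and 0.325 with DMSO and 0.698 and 0.626 with emetine for the 192-nucleotide exon and 0.844 and 0.868 with DMSO and 0.431 and 0.465 with emetine for the 162-nucleotide exon.

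Genes with exons known to switch in the epithelial-mesenchymal transition had the highest share of any list, although the list was put together for its known alternative exons. Of 62 tested genes 42 changed (67.7%), 13 only higher, 24 only lower and 5 both (ARHGEF12, BIN1, CD44, NUMB and TEAD1). SPAG9, a scaffold of JNK signalling, lost its 39-nucleotide exon, with levels of 0.729 and 0.766 in the DMSO libraries and 0.173 and 0.206 under emetine. PLEKHA1, a phosphoinositide-binding adaptor, lost its 41-nucleotide exon 12 (chr10:124187792-124187832, plus strand), with levels of 0.85 and 0.847 in the DMSO libraries and 0.17 and 0.31 under emetine. The splicing regulator MBNL1 gained its 54-nucleotide exon, with levels of 0.206 and 0.191 in the DMSO libraries and 0.576 and 0.545 under emetine, and ASAP1, which acts on ARF GTPases, gained a 102-nucleotide exon, with 0.237 and 0.204 with DMSO and 0.624 and 0.567 with emetine. In CD44, the hyaluronan receptor, the 6 variable-exon events with at least 2997 reads in every library had DMSO levels of at most 0.0191 and emetine levels of at most 0.0989. All 6 rose with an adjusted p under 0.05 in the quasi-binomial model, but by 0.002 to 0.0708, so the size threshold left them uncalled. Variable-exon events with 45 to 130 reads in the least covered library were called in both directions, with rises of 0.176 to 0.286 and falls of 0.237 and 0.118. Of these limma called only the rise of 0.286, listed for overlapping exons of 117 and 120 nucleotides with the same levels. CTNND1, the p120 catenin gene, rose in 6 events, by 0.110 to 0.265, of which limma called 3. These are events of the exon chr11:57556509-57556627 and of overlapping exons that end at 57559145, so they are not independent.

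Cytoskeletal and adhesion genes had shares slightly above that of all genes. Of 154 tested cytoskeletal genes 58 changed (37.7%), 31 only lower, and of 101 genes of adhesion and matrix 35 (34.7%), 20 only lower. MAP2, a microtubule-associated protein, gained its 171-nucleotide exon 9, with levels of 0.146 and 0.202 in the DMSO libraries and 0.84 and 0.745 under emetine, and TUBB6, a β-tubulin, gained an exon annotated to bring decay, with 0.41 and 0.327 with DMSO and 0.896 and 0.877 with emetine. PLOD2, a collagen lysyl hydroxylase, lost its 63-nucleotide exon 14 (chr3:145795649-145795711, minus strand), with levels of 0.893 and 0.893 in the DMSO libraries and 0.516 and 0.487 under emetine. The integrin chain gene ITGA6 lost a 130-nucleotide exon, with levels of 0.728 and 0.816 with DMSO and 0.452 and 0.422 with emetine. LTBP4, a matrix protein that binds latent TGF-β, and PLXNB2, a semaphorin receptor, gained exons (changes 0.306 and 0.271).

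Membrane traffic and metabolism gave mixed directions. Of 255 genes of endocytosis and vesicle traffic 88 changed (34.5%), of 128 solute carriers 43 (33.6%) and of 114 genes of lipid and sterol metabolism 38 (33.3%), all close to all genes. STX16, a SNARE of the trans-Golgi network, lost a 152-nucleotide exon, with levels of 0.82 and 0.808 in the DMSO libraries and 0.252 and 0.2 under emetine, and TRAPPC2, of the TRAPP tethering complex, gained one, with 0.208 and 0.316 with DMSO and 0.671 and 0.721 with emetine. SLC37A4, the glucose 6-phosphate transporter, had levels of 0.867 and 0.969 with DMSO and 0.324 and 0.321 with emetine for a 183-nucleotide exon, and the mitochondrial carrier SLC25A14 rose by 0.272. STARD5, a sterol-binding protein, and SPTLC2, a subunit of serine palmitoyltransferase, lost exons (changes -0.675 and -0.506), and PGS1, of cardiolipin synthesis, gained one (change 0.447). Oxidative phosphorylation and mitochondrial translation were low, with 30 of 149 genes (20.1%). There NDUFB5 and NDUFAF5, a subunit and an assembly factor of complex I, gained exons (changes 0.307 and 0.375), and MRPL55 and GFM2, of the mitochondrial ribosome and its recycling, lost them (changes -0.501 and -0.397).

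Of 80 genes of amino acid, nucleotide and polyamine metabolism 19 changed (23.8%), 12 only lower and 4 only higher (BCAT2, NME4, NT5C3A and SAT1). SAT1, which breaks down polyamines, had levels of 0.0258 and 0.0108 in the DMSO libraries and 0.729 and 0.645 under emetine for a 110-nucleotide exon (chrX:23802411-23802520, plus strand) that is listed in a noncoding form. The exon went from almost absent to the majority form (change 0.669, adjusted p = 1.4e-40), opposite to the fall in its relative SAT2. UPP1, which cleaves uridine, lost an exon, with levels of 0.777 and 0.731 with DMSO and 0.375 and 0.371 with emetine. Protein quality control was below all genes, with 23 of 92 genes of folding and stress (25%), 37 of 144 of the proteasome and ubiquitin system (25.7%) and 21 of 85 of autophagy and lysosomes (24.7%). ERP29, a chaperone of the endoplasmic reticulum, lost its 139-nucleotide exon 2, with levels of 0.974 and 0.946 with DMSO and 0.604 and 0.57 with emetine, and the folding enzyme DNAJC10 fell by 0.307 while DNAJC25 rose by 0.322. GUSB, the lysosomal β-glucuronidase, and ATG9A, a membrane protein of autophagosome formation, fell by 0.432 and 0.425, and CALCOCO1 and ATG12 rose by 0.253 and 0.145. In the ubiquitin list CUL7, a cullin, gained a 43-nucleotide noncoding exon (change 0.253) and lost its 91-nucleotide coding exon 11 (change -0.227). UFD1L rose by 0.311 and UBE2Q2 fell by 0.255.

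The response was also set beside that of MCF10A, by a test of the term for line by emetine over all 8 libraries, on the scale of log odds. In MCF10A 3363 of 25522 tested events changed (13.2%). The difference between the lines was called for 274 of 31825 events (0.861%), 192 with a change more negative in HMLE TWIST and 82 with a change more positive. limma on the log2 odds called 0 of them, with 4058 events at an unadjusted p under 0.05 and a smallest adjusted p of 0.197, so these calls rest on the quasi-binomial model alone. Of 7827 events with both forms coding, 120 (1.53%) were called more negative in HMLE TWIST and 41 (0.524%) more positive. Over all tested events these shares were 0.603% and 0.258%, so more negative calls led there as well. Where the shorter intron was up to 200 nucleotides, 44 of 4983 events (0.883%) were more negative in HMLE TWIST and 4 (0.0803%) more positive. In MCF10A, 13.8% of 458 events between 2 short introns fell and 1.09% rose, beside the 20.9% and 0.392% in HMLE TWIST. Where inclusion is annotated to bring decay and skipping to be coding, 21.2% rose in MCF10A and 15.8% in HMLE TWIST, and the shares themselves were not tested against each other.

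A difference between the lines was called for 14 of the named events, and for others it was not. SRSF3 rose by 0.469 in HMLE TWIST and 0.51 in MCF10A (adjusted p for the difference 0.542). SAT1 rose by 0.669 and 0.722 (0.815), and CHEK2 changed by -0.567 and -0.521 (0.898). CLK3 changed by -0.474 and -0.0407, a gap that did not pass the test (0.268). SPAG9 and PLEKHA1, from the list of the epithelial-mesenchymal transition, fell in HMLE TWIST by 0.558 and 0.608, with changes of -0.0223 and -0.0177 in MCF10A (adjusted p for the difference 3.81e-05 and 0.00193). Both exons were already rare in MCF10A with DMSO, at 0.0854 and 0.0445 (SPAG9) and 0.0642 and 0.0746 (PLEKHA1). They could hardly fall there. MBNL1 and ASAP1, from the same list, rose by 0.362 and 0.374 in HMLE TWIST and by 0.306 and 0.372 in MCF10A (0.852 and 1). Members of this list thus included exons with a called difference between the lines and exons without one.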

How the data were processed

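Polyadenylated RNA was sequenced in 4 HMLE TWIST libraries, 2 per treatment, from stranded paired-end TruSeq libraries, per the labels' protocols. Reads were aligned with STAR 2.5.3a to GRCh37, per the submitters' processing notes, and the deposited tables have the format of rMATS, per the file headers. Its version is not given in the sources used here. The other deposited values used are the authors' junction counts of inclusion and skipping and the effective lengths of the 2 forms. The header names the groups only as first and second sample, taken as DMSO and emetine from the order in the table's name. The replicates in a cell carry no number. Each deposited p-value, with its false discovery rate, is the authors' own test result. The authors' deposited score of level difference was read but not used. Of the 4317 calls made here, 4287 (99.3%) had a false discovery rate under 0.05 in the authors' deposited table.

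Inclusion levels were computed from the counts and lengths. Counts were tested with a quasi-binomial model (R 4.3.3), with dispersions moderated by limma 3.58.1 (squeezeVar) and floored at 1. Adjustment of p-values was by Benjamini-Hochberg over every tested event. The dispersion prior was estimated from events with at least 10 reads of each form in each replicated group, a choice made after seeing the data. limma was also run on log2 odds with 0.5 added to each count. Libraries of 1 group were further apart than counting error gives (mean chi-square per event 1.82 and 2.09), with a median absolute level difference of 0.0094 and 0.0123. The first-listed values of the 2 groups did not deviate together (correlation 0.00667). p-values measure the spread between these libraries only. Wilson intervals cover counting error only.

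Named events were, per list, up to 2 genes with the largest rise and 2 with the largest fall among changed events with at least 50 reads in every library, an adjusted p under 0.05 in limma and replicates that did not overlap. The 5 genes with the most changed exons and the cell type markers were added. Some events that meet this rule are not reported here. The members and lists were chosen with earlier results of these data known. Annotation came from GENCODE 29 on GRCh38 by gene, exon length and intron lengths, so no coordinates were converted. Alternatives were another test, dispersion, filter, threshold and length scaling, 1 event per exon, leaving out a library and the replicate block.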

Additional observations from a re-analysis of the deposited data

Results flagged for a closer look

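For 14 named events the change under emetine differed between HMLE TWIST and MCF10A by the term for line by emetine over 8 libraries (quasi-binomial model, Benjamini-Hochberg adjusted). limma on the log2 odds called 0 of them, with adjusted p between 0.197 and 0.485. The differences below are the HMLE TWIST change minus the MCF10A change.

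The fall was larger in HMLE TWIST in 8 events. PLEKHA1 differed by -0.59 and SPAG9 by -0.535, with changes of -0.0177 and -0.0223 in MCF10A. There the DMSO levels were only 0.0642 and 0.0746 (PLEKHA1) and 0.0854 and 0.0445 (SPAG9), which left hardly any room for a fall. STX16 differed by -0.46 (MCF10A change -0.128) and ACIN1 by -0.306 (MCF10A change -0.0201). The 140-nucleotide exon of EIF4A2 differed by -0.248, with -0.0175 in MCF10A. ERP29, PLOD2 and HDAC7 differed by -0.178, -0.154 and -0.143, with MCF10A changes of -0.195, -0.238 and -0.425.

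The rise was larger in HMLE TWIST in the other 6. SNHG8 differed by 0.208, IVNS1ABP by 0.254 and the 107-nucleotide exon of EIF4A2 by 0.288, with MCF10A changes of 0.203, 0.659 and 0.476. RPS9 differed by 0.371 (MCF10A change 0.151), MDC1 by 0.402 (0.046) and CENPV by 0.426 (0.00462). With DMSO, RPS9 stood at 0.746 and 0.831 in MCF10A and the 107-nucleotide exon of EIF4A2 at 0.438 and 0.491. Both thus had less room to rise there than in HMLE TWIST.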

How the results depend on the processing

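The counts of changed events (4317, with 1895 higher and 2422 lower) and of genes with one (2664) stayed within 1.5 times of these values under the other dispersion, read filters and 1 event per exon. Leaving out a library gave 3536 to 4197 changed events, 1488 to 1910 higher, 1963 to 2305 lower and 2297 to 2645 genes, always with more falling than rising events. With a required change of 0.2, 2014 events (898 higher, 1116 lower) in 1440 genes passed, and limma called 1177 higher. Without the length correction the short-intron share that fell was 81.4%, and 46.4% of all changed events were lower. A dispersion prior from all events gave 4246 changed events, but 0 when an emetine library was left out (0 higher, 0 lower, 0 genes), against 3237 and 3093 without a DMSO library. The prior's degrees of freedom were 65.3 as reported, 6.23 with all events and at most 1.16 in the fits with 0 calls, while the reported prior gave every event 1 shared dispersion in those same fits, and the cause was not tested. With the replicate block, where the first-listed value stood for replicate 1, 4547 events changed (2023 higher, 2524 lower, 2780 genes), and 0 with the block and the prior from all events together. The difference between the lines was called for 165 events with each event's own dispersion where larger, 509 with the prior from all events and 0 by limma. Of 110 named events, RPL10A (0.0941) missed the threshold without the length correction and RANBP3 (adjusted p = 0.0721) without the second DMSO library, and all 110 lost their call in the fits with 0 calls. The planned edgeR alternative was not run, because the deposited cells hold pairs of counts. With 2 libraries per group the small adjusted p-values rest on a dispersion shared across events. Depth limits the events near 20 reads.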
